A study of Mus musculus with 8 samples.

Results

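The synaptonemal complex and meiotic recombination genes described here are Sycp1, Sycp2, Sycp3, Dmc1, Spo11, Msh4 and Msh5, taken as markers of spermatocytes, and their members are all probe sets annotated to 1 of these 7 symbols. The array annotation listed 4 of the 7 genes, with 1 probe set each, so the group comprised 4 of 12488 probe sets and 4 of 8252 listed genes. Sycp2, Spo11 and Msh4 had no listed probe set and are named without values. The rule that picks them uses no measured value. Total RNA labelled as testis was hybridised to 8 Affymetrix MG_U74Av2 arrays, 2 for each of 4 genotypes. Double knockout arrays carried Ku86(-/-) together with Terc(-/-) of the third knockout generation (G3). Ku86 knockout arrays were Ku86(-/-) with Terc(+/+), Terc knockout arrays were Ku86(+/+) with G3 Terc(-/-), and wild type arrays were Ku86(+/+) with Terc(+/+). Ku86, the protein of Xrcc5, is a DNA end-binding subunit of non-homologous end joining, and Terc is the RNA template of telomerase. Age, strain and the design of the alleles are not given in the labels. The scanner records name the samples germ cells where the labels say testis, and they state that RNA of 3 mice was pooled for the first double knockout array.

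In meiotic prophase, spermatocytes break their DNA on purpose and repair the breaks on the homologous chromosome. Spo11 makes the breaks, Dmc1 is the meiosis-specific recombinase that carries the broken ends to the homologue, and Msh4 and Msh5 form a heterodimer that stabilises the joined intermediates on the way to crossovers. The homologues are meanwhile held along their length by the synaptonemal complex, in which Sycp2 and Sycp3 build the lateral elements and Sycp1 forms the transverse filaments between them. These genes are used as markers of spermatocytes in the testis, and Sycp1 and Sycp3 proteins are the usual stains for the stages of prophase.

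Arrays differed in scan day, chip lot and median signal as well as in genotype. Double knockout replicate 1 and Ku86 knockout replicate 1 were scanned on 1 day and wild type replicate 1 alone on another, as a repeated hybridisation, and the other 5 arrays, which covered all 4 genotypes, shared a day. Chip lot changed with the day, so these 2 cannot be told apart. Median signals ran from 49.7 to 73.2 linear intensity units. The wild type arrays had the lowest, 49.7 on replicate 1 and 59.4 on replicate 2, against 60.5 to 73.2 on the knockout arrays. The floor of 11.8 set for low values took in 15.6% to 26.0% of an array's probe sets. The targeted gene Xrcc5 read 390 ± 89.3 on the arrays labelled Ku86(-/-), against 51.1 ± 29.6 on those labelled Ku86(+/+) (SD, n = 4 each). A second probe set of Xrcc5 was under the floor on every array. The direction of the first is opposite to a lost transcript. Neither the position of the probes relative to the deletion nor an exchange of the Ku86 labels was tested, so every genotype below, and every direction drawn for Ku86, is that of the label. Terc had no listed probe set. Nothing in the labels says that replicates came from separate animals, so p-values measure only the spread between these arrays. The limma fit estimates that spread for each probe set partly from the other tested probe sets.

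Sycp1 was the only one of the 4 measured members with a signal clearly above the dim range, and its level did not separate the genotypes. Its probe set (92692_at) read 481.7 and 458.5 in double knockout testis, 256.6 and 423.6 in Ku86 knockout testis, 465.6 and 357.7 in Terc knockout testis, and 315.6 and 530.6 in wild type testis. The lowest array was Ku86 knockout replicate 1 and the highest was wild type replicate 2. Both double knockout arrays, both Terc knockout arrays and 1 of the 2 Ku86 knockout arrays lay between the wild type arrays, which were 1.68-fold apart. Over all 8 arrays Sycp1 averaged 411 ± 93.0 (SD, n = 8), and on each array 78.6% to 88.3% of probe sets lay below it.

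**Figure D1:**
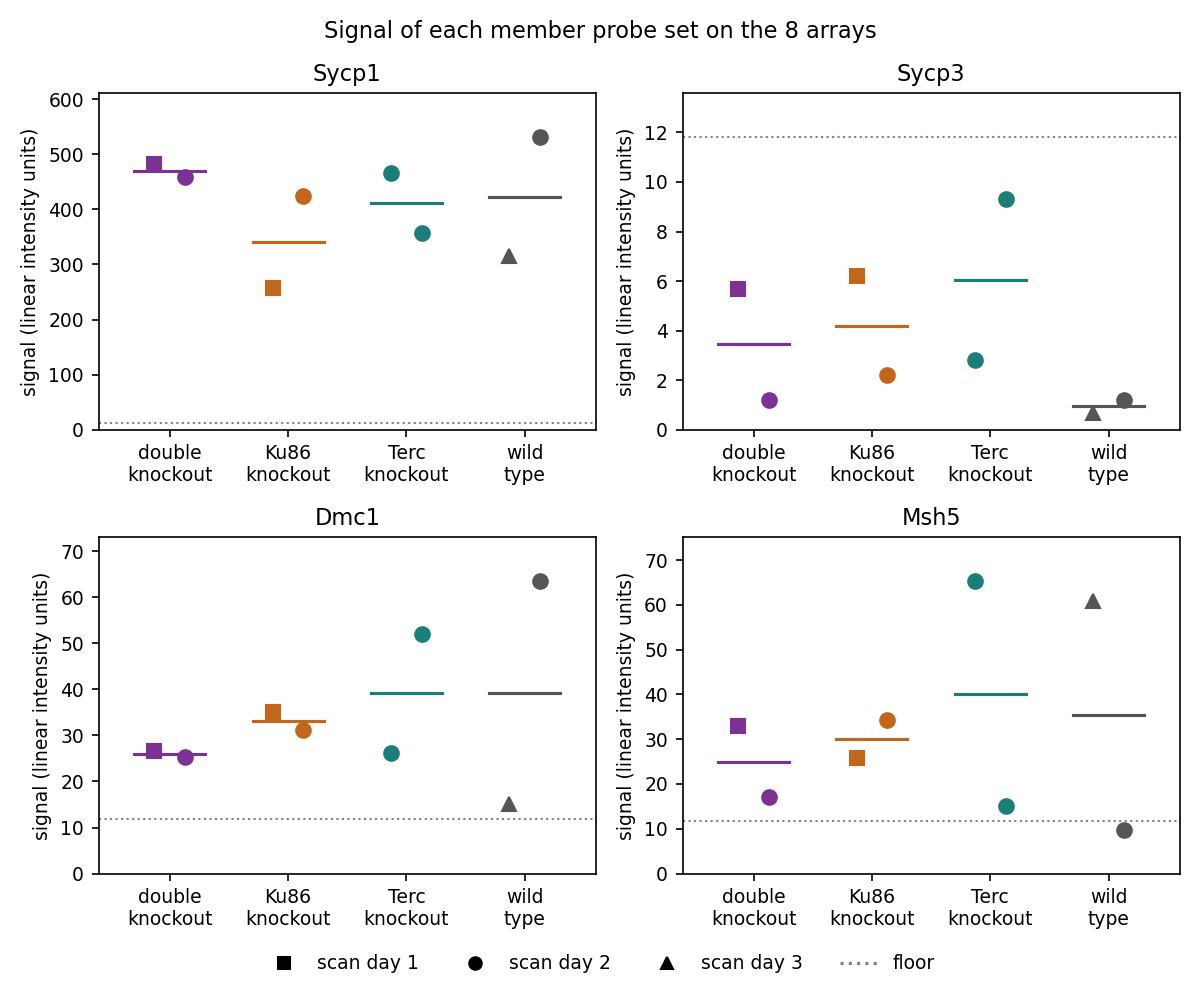
Signal of the 4 measured members on the 8 arrays, in linear intensity units from 0 with an axis of its own for each gene, by genotype, with each point an array, its shape the scan day, each bar the mean of 2 arrays and the dotted line the floor of 11.8. Sycp1 lies between 256.6 and 530.6 on every array, Dmc1 and Msh5 scatter above and around the floor, and Sycp3 lies under it on all 8 arrays.

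Mean signal of Sycp1 was 470 ± 16.4 in the double knockout, 340 ± 118 in the Ku86 knockout, 412 ± 76.3 in the Terc knockout and 423 ± 152 in wild type (SD, n = 2 each). The double knockout was thus highest and the Ku86 knockout lowest, with the Terc knockout just under wild type between them. No 2 neighbours in this order were further apart than the larger of their SDs. The replicates of double knockout were the closest, 1.05-fold apart, whereas those of Ku86 knockout were 1.65-fold apart and those of Terc knockout 1.30-fold apart. Grouped by 1 gene at a time, Sycp1 averaged 405 ± 102 on the arrays labelled Ku86(-/-), against 417 ± 98.4 on the arrays labelled Ku86(+/+), and 441 ± 56.3 on the arrays labelled Terc(-/-), against 382 ± 121 on those labelled Terc(+/+) (SD, n = 4 each). The 4 values overlapped between the labels in both groupings.

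Whether loss of Ku86, of telomerase RNA or of both changed Sycp1 was tested in a limma fit to all 7282 probe sets above the dim range, with Benjamini-Hochberg adjustment over all of them. The log2 difference of Sycp1 signal from wild type was 0.20 ± 0.31 in the double knockout (SE, 95% interval -0.47 to 0.87, adjusted p = 0.922), and 0.0275% of tested probe sets were called at an adjusted p under 0.05. In the Ku86 knockout it was -0.31 ± 0.31 (SE, 95% interval -0.98 to 0.36, adjusted p = 0.834, limma), where 0.0412% of probe sets were called. In the Terc knockout it was -0.0039 ± 0.31 (SE, 95% interval -0.68 to 0.67, adjusted p = 0.996, limma), where 0.0275% were called. As fold changes of signal, the intervals ran from 0.721 to 1.83 in the double knockout, from 0.506 to 1.28 in the Ku86 knockout and from 0.626 to 1.59 in the Terc knockout. With 2 arrays a genotype, each interval held both no change and folds up to its bounds, so the test does not show that Sycp1 was equal. In RNA of mixed cells, whether testis or germ cells, fewer spermatocytes and less Sycp1 RNA per spermatocyte cannot be told apart.

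The factorial contrasts gave the same picture for Sycp1. Averaged over the Terc genotype, loss of Ku86 went with a log2 difference of -0.05 ± 0.22 (SE, 95% interval -0.53 to 0.42, adjusted p = 0.986, limma), where 0% of tested probe sets were called and 375 (5.15%) had an unadjusted p under 0.05. Averaged over the Ku86 genotype, loss of Terc went with 0.25 ± 0.22 (SE, 95% interval -0.22 to 0.73, adjusted p = 0.967, limma), where 0.0137% were called and 385 (5.29%) had an unadjusted p under 0.05. The interaction, which is how far the double knockout departs from the sum of the single knockouts, was 0.52 ± 0.43 (SE, 95% interval -0.43 to 1.46, adjusted p = 0.882, limma), where 0% were called and 367 (5.04%) had an unadjusted p under 0.05. Unadjusted, the p of Sycp1 was 0.528, 0.331 and 0.990 against wild type in the double, Ku86 and Terc knockouts, and 0.808, 0.266 and 0.259 for Ku86 loss, Terc loss and their interaction. None of the 6 contrasts called Sycp1.

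**Figure D2:**
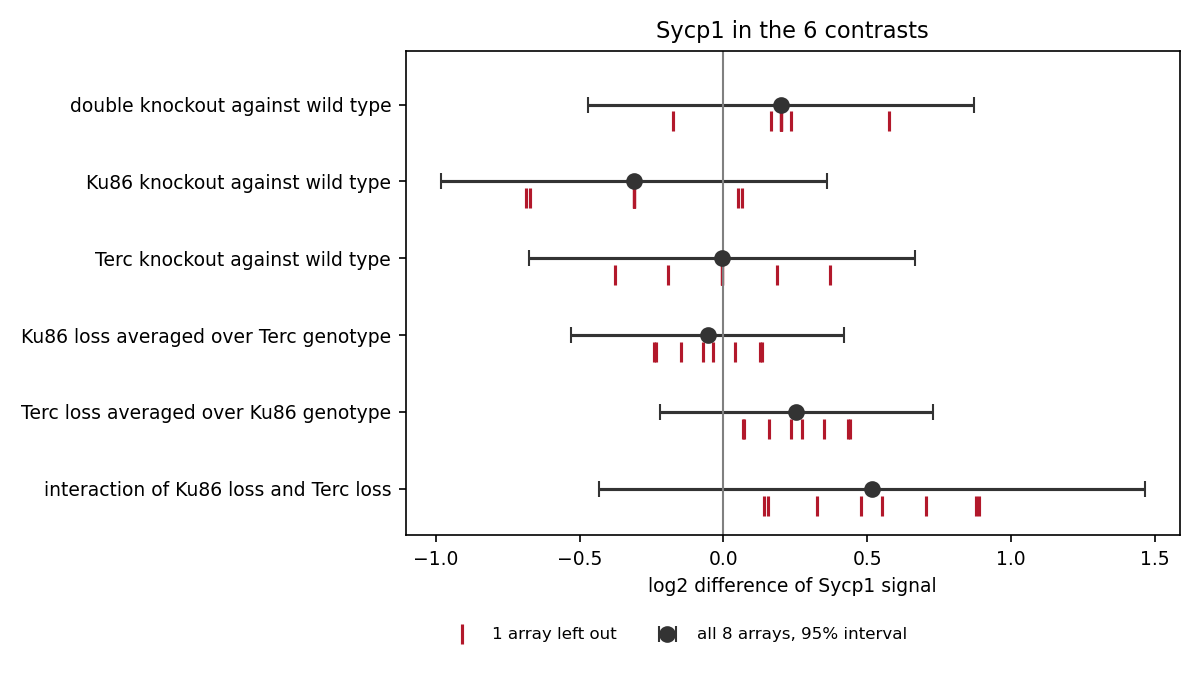
Log2 difference of Sycp1 signal in the 6 contrasts, with points and bars for the estimate and its 95% interval from all 8 arrays and ticks for the estimate with each array left out in turn. Every interval spans 0, and in the 3 comparisons with wild type the ticks lie on both sides of it.

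Sycp1 depended on single arrays, the wild type pair above all. Without wild type replicate 1, the dimmest array, its log2 difference from wild type was -0.18 in the double knockout, -0.69 in the Ku86 knockout and -0.38 in the Terc knockout. Without wild type replicate 2 the same differences were 0.57, 0.06 and 0.37, so each direction was set by which wild type array remained. Among the 5 arrays of the shared scan day, where wild type was 1 array, the differences were -0.21, -0.32 and -0.38 in the double, Ku86 and Terc knockouts. With scan day as a block they were -0.01, -0.52 and -0.38, and the interaction was 0.89. That block gave wild type replicate 1, alone on its day, a term of its own, so wild type rested on replicate 2. The Terc knockout value is therefore the same as without wild type replicate 1, and these settings are not separate checks. The only other day with 2 genotypes held no wild type array, and there Sycp1 read 481.7 in the double knockout and 256.6 in the Ku86 knockout. The residual SD of Sycp1 between replicates was 0.393 on the log2 scale, against a median of 0.299 over all tested probe sets and 0.236 over 19 other spermatocyte genes. It was larger than that of 69.0% of tested probe sets and of 17 of the 19 spermatocyte genes.

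Set against those 19 spermatocyte genes array by array, Sycp1 again showed no separation of genotypes. Its log2 deviation relative to their mean, centred over the 8 arrays, was 0.15 and 0.31 in double knockout testis, -0.77 and 0.12 in Ku86 knockout testis, 0.19 and -0.05 in Terc knockout testis, and -0.26 and 0.31 in wild type testis. Ku86 knockout replicate 1 was the array on which Sycp1 stood furthest from the other spermatocyte genes, and its replicate 2 was close to 0. The mean log2 signal of the 19 genes was 10.6 ± 0.163 in the double knockout, 10.7 ± 0.123 in the Ku86 knockout, 10.6 ± 0.0975 in the Terc knockout and 10.7 ± 0.131 in wild type (SD, n = 2 each).

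Sycp3, which encodes a core protein of the lateral elements, gave no usable level. Its probe set (160143_r_at) read 5.7 and 1.2 in double knockout testis, 6.2 and 2.2 in Ku86 knockout testis, 2.8 and 9.3 in Terc knockout testis, and 0.7 and 1.2 in wild type testis. All 8 values lay under the floor of 11.8, so they have no order and no fold is given. The suffix _r_ marks a probe set for which Affymetrix relaxed its probe selection rules, and whether that bears on the low values was not tested. Nothing follows from them about the abundance of Sycp3 RNA in these testes.

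Dmc1, the meiotic recombinase, was dim and variable. Its signal (96498_at) was 26.6 and 25.2 in double knockout testis, 35 and 31.1 in Ku86 knockout testis, 26.2 and 52 in Terc knockout testis, and 15.1 and 63.5 in wild type testis. All 8 values were above the floor, and the 6 knockout values all lay between the 2 wild type values, which were 4.21-fold apart. Its arithmetic mean was 34.3, and its mean log2 signal corresponded to 31.4, under the filter of 38.1 that was set on the mean log2 signal. With no filter, where 12422 probe sets were tested, its log2 difference from wild type was -0.26 in the double knockout (95% interval -2.21 to 1.69), 0.09 in the Ku86 knockout (-1.86 to 2.04) and 0.25 in the Terc knockout (-1.69 to 2.20), with limma's adjusted p at 1 in all 3. Each interval took in more than a 3-fold change in signal either way. Among arrays of the shared scan day, against the brighter wild type array alone, the differences were -1.33, -1.03 and -0.78, and wild type replicate 1 read lower than every knockout array.

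Msh5, the partner of Msh4 in the crossover pathway, scattered most of all. Its signal (103719_at) was 33 and 17 in double knockout testis, 25.7 and 34.2 in Ku86 knockout testis, 65.3 and 15.1 in Terc knockout testis, and 60.9 and 9.7 in wild type testis. Wild type replicate 2 was under the floor and wild type replicate 1 was nearly the highest of the 8, a 6.28-fold gap within 1 genotype, and the Terc knockout arrays were 4.32-fold apart. Msh5 and Dmc1 thus placed the 2 wild type arrays in opposite order. The arithmetic mean of Msh5 was 32.6, and its mean log2 signal corresponded to 27.7, also under the filter of 38.1. With no filter its log2 difference from wild type was -0.18 in the double knockout (95% interval -2.96 to 2.60), 0.15 in the Ku86 knockout (-2.63 to 2.92) and 0.23 in the Terc knockout (-2.55 to 3.005), with limma's adjusted p at 1 in all 3. Among arrays of the shared scan day, against the dimmer wild type array alone, set to the floor, the differences were 0.53, 1.54 and 1.41. The residual SD was 1.18 for Msh5 and 0.814 for Dmc1 on the log2 scale, so neither could be placed above or below wild type.

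Other genes of the synaptonemal complex and the meiotic axis were read from a list of 17, of which the array listed 5, and all 5 passed the filter. None was called in any of the 3 comparisons with wild type. Syce2, a central element protein that works beside Sycp1 in the same structure, had the lowest unadjusted p of the 5 in each comparison. Its signal (95561_at) was 1204.3 and 1067.1 in double knockout testis, 1130.2 and 1013 in Ku86 knockout testis, 1370.5 and 1137.4 in Terc knockout testis, and 1651.1 and 1536.1 in wild type testis. All 6 knockout arrays read below both wild type arrays, a pattern shared by 3.79% of tested probe sets. The log2 difference of Syce2 was -0.49 ± 0.19 in the double knockout (SE, unadjusted p = 0.0222, adjusted p = 0.497, limma) and -0.57 ± 0.19 in the Ku86 knockout (SE, unadjusted p = 0.00975, adjusted p = 0.802, limma). In the Terc knockout it was -0.35 ± 0.19 (SE, unadjusted p = 0.0844, adjusted p = 0.672, limma). At an unadjusted p under 0.05, 8.6% of tested probe sets passed in the double knockout, 5.9% in the Ku86 knockout and 7.06% in the Terc knockout. With scan day as a block, which left wild type resting on replicate 2, the differences of Syce2 were -0.52, -0.60 and -0.30.

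**Figure D3:**
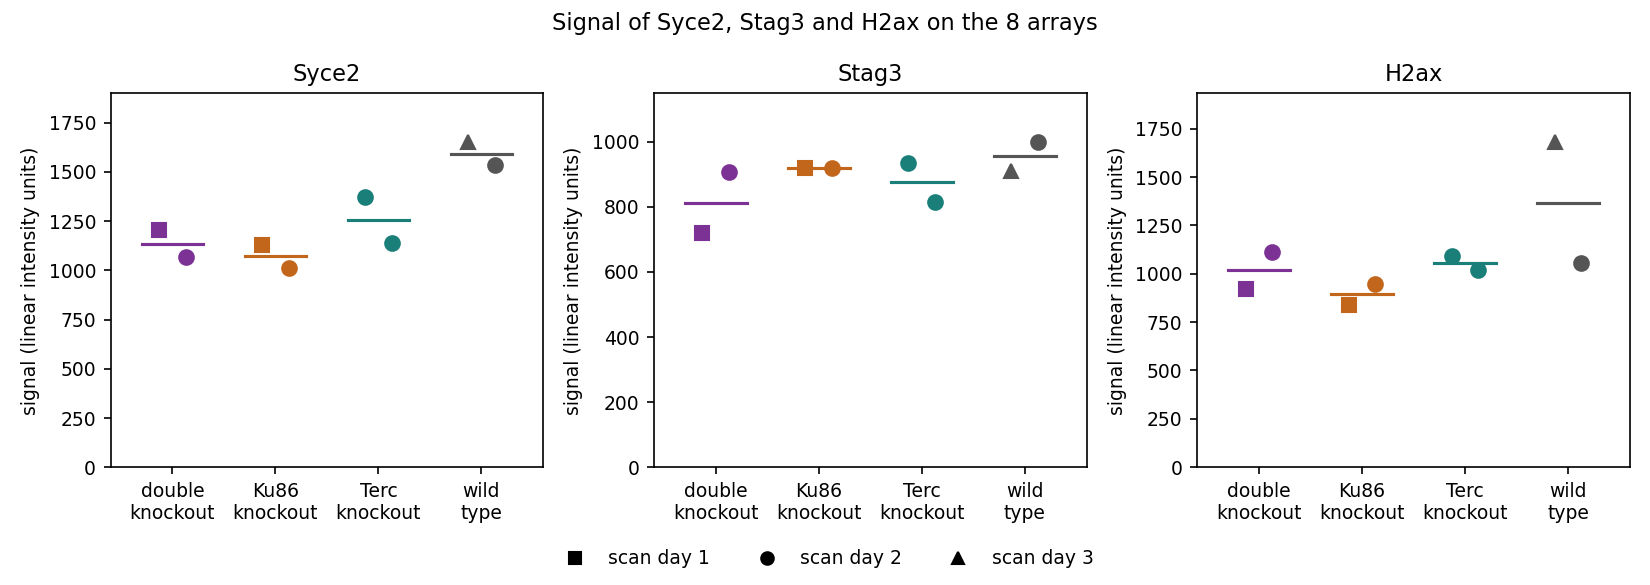
Signal of Syce2, Stag3 and H2ax on the 8 arrays, in linear intensity units from 0, by genotype, with each point an array, its shape the scan day and each bar the mean of 2 arrays. Syce2 is lower on all 6 knockout arrays than on either wild type array, Stag3 overlaps between genotypes in the Ku86 and Terc knockouts, and H2ax stands apart on wild type replicate 1, the array scanned alone.

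Stag3, the meiosis-specific cohesin subunit of the axis, read 718.5 and 906.7 in double knockout testis, 920.1 and 919.2 in Ku86 knockout testis, 933.9 and 815.9 in Terc knockout testis, and 911.2 and 998.4 in wild type testis. Its double knockout values were both under the wild type values as in 13.2% of tested probe sets, and the other genotypes overlapped wild type. The log2 differences of Stag3 were -0.24, -0.05 and -0.13 in the double, Ku86 and Terc knockouts. Smc3, a cohesin subunit of mitosis and meiosis alike, differed by 0.70, 0.52 and 0.32, with wild type arrays at 90.4 and 198.6 that took in 3 of the 6 knockout values. Trip13, the ATPase that strips HORMA-domain proteins from synapsed axes, differed by 0.28, -0.25 and 0.48, and Ccnb1ip1, a ubiquitin ligase needed for crossovers, by 0.49 in the Terc knockout. Of the 5 genes, 3 lay above 0 in the double knockout, 2 in the Ku86 knockout and 3 in the Terc knockout. Their median log2 differences were 0.11, -0.05 and 0.32, beside medians of 0.08, 0.08 and 0.09 over all 5530 tested genes.

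Recombination and homologous repair genes were read from a list of 35, of which 17 were listed and 12 passed the filter. Again none was called against wild type. At an unadjusted p under 0.05, 0, 1 and 0 of the 12 passed in the double, Ku86 and Terc knockouts, the 1 being H2ax. Over all tested probe sets 8.6%, 5.9% and 7.06% passed. H2ax (listed as H2afx), the histone variant phosphorylated around DNA breaks and over the sex chromosomes of spermatocytes, read 923.8 and 1112.6 in double knockout testis, 839.1 and 947.9 in Ku86 knockout testis, 1091.1 and 1019.1 in Terc knockout testis, and 1679.8 and 1055.6 in wild type testis. The high value was wild type replicate 1, the array scanned alone, and wild type replicate 2 lay among the knockout values. Its log2 differences were -0.39, -0.58 and -0.34, and with scan day as a block they were 0.05, -0.13 and -0.0015. That block left wild type resting on replicate 2, since replicate 1 was alone on its day. The unadjusted p of H2ax in the Ku86 knockout was 0.0290 (adjusted p = 0.802, limma), and without wild type replicate 1 the log2 difference there was -0.24 (unadjusted p = 0.296).

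Brca2, which loads recombinases onto resected ends, was the only gene of the 3 meiotic lists that read higher on all 6 knockout arrays than on both wild type arrays. Its signal was 516.6 and 557.8 in double knockout testis, 467.1 and 474.3 in Ku86 knockout testis, 483.1 and 481.7 in Terc knockout testis, and 402.3 and 437.5 in wild type testis. This pattern was shared by 7.62% of tested probe sets, and its log2 difference in the double knockout was 0.36 ± 0.20 (SE, adjusted p = 0.681, limma). Brca1, a break repair and chromatin factor, differed by 0.86 in the double knockout, 0.49 in the Ku86 knockout and -0.59 in the Terc knockout, on signals of 16.7 to 76.8. Nbn, a subunit of the complex that resects breaks, differed by -0.77 in the Terc knockout, where its arrays read 88.1 and 42.5, against 92.4 and 117.3 in wild type. Msh3, a mismatch repair protein, differed by -0.82 in the double knockout, from 1 dim array of 28.2 beside one of 119.4, and by -0.75 in the Terc knockout. Rpa1, a subunit of the single-strand binding complex that precedes Dmc1 on the ends, differed by 0.30 in the Ku86 knockout, and Psmc3ip, a cofactor of Dmc1, by -0.20. Of the 12 genes, 6, 7 and 4 lay above 0 in the double, Ku86 and Terc knockouts, with median log2 differences of 0.01, 0.15 and -0.10.

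Levels of 30 genes of meiotic germ cells outside recombination were read beside the members. Their levels do not test whether the members mark spermatocytes. The array listed 21 of the 30 genes, all 21 were above the floor on all 8 arrays, and 19 passed the filter. Summed signal of the 21 was 59404 and 56453 in double knockout testis and 60648 and 56445 in Ku86 knockout testis. It was 62058 and 54162 in Terc knockout testis, and 58263 and 62288 in wild type testis. The replicates of Terc knockout were further apart than the means of any 2 genotypes. Ldhc, the germ cell lactate dehydrogenase, read 10230.3 and 11639.7 in double knockout testis, 9521 and 10633.4 in Ku86 knockout testis, 13680.6 and 10889.2 in Terc knockout testis, and 12307.9 and 12301.4 in wild type testis. Its log2 difference was -0.17 in the double knockout and -0.29 in the Ku86 knockout, with both arrays of each under wild type, as in 13.2% and 13.7% of tested probe sets. Ddx4, the germ cell RNA helicase, differed by 0.42 and 0.54 in the double and Ku86 knockouts, against wild type arrays of 865.2 and 1842 that were far apart.

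The remaining spermatocyte genes were as mixed. Hsf2, a heat shock transcription factor of spermatocytes, differed by -0.61 in the Ku86 knockout and -0.50 in the Terc knockout, and H1f6 (listed as Hist1h1t), the testis linker histone, by 0.58 in the Terc knockout. Cdk1, the kinase that drives entry into division, differed by 0.33 in the Ku86 knockout, and Plk1, a kinase of the same transition, by -0.25 in the Terc knockout. The other tested probe sets of Plk1 differed there by -0.15 and 0.04. Ybx2, the germ cell RNA-binding protein, differed by -0.31 in the Terc knockout, Tcp11, a testis-enriched gene, by -0.18 in the double knockout, and Adam2, a sperm surface protein, by -0.28 there. None of the 19 was called in any comparison with wild type. At an unadjusted p under 0.05, 0 of them passed, beside 8.6%, 5.9% and 7.06% of all tested probe sets. In the double, Ku86 and Terc knockouts 9, 11 and 6 of the 19 lay above 0, with medians of -0.01, 0.09 and -0.06, beside 58.8%, 58.6% and 59.8% above 0 over all tested genes. Position against 0 depended on the scaling, as median centring of the arrays took the median of all tested genes to -0.19, -0.15 and -0.24 and that of the spermatocyte genes to -0.28, -0.14 and -0.40. With that centring the medians were -0.15, -0.29 and -0.01 for the synaptonemal complex and axis genes and -0.25, -0.08 and -0.43 for the recombination and repair genes.

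**Figure D4:**
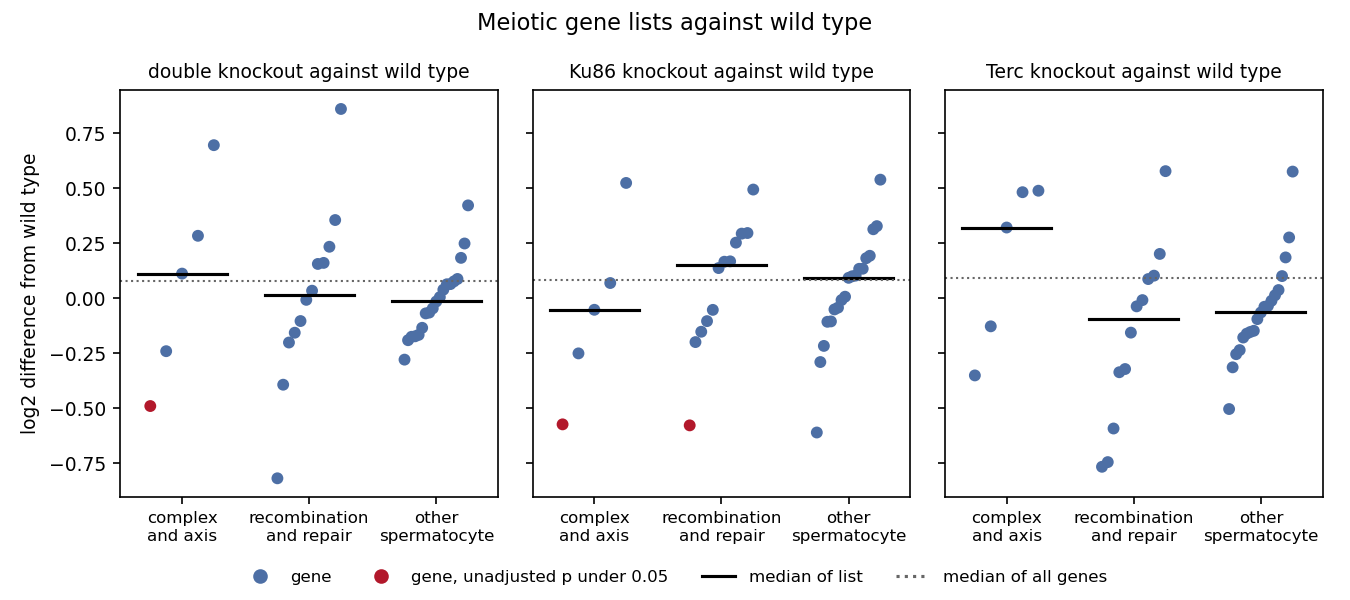
Log2 difference from wild type of each tested gene (point) of the 3 meiotic lists in the double, Ku86 and Terc knockouts, sorted within a list, with solid bars for the median of the list and a dotted line for the median of all tested genes. As deposited, the medians lie between -0.10 and 0.32, genes of each list fall on both sides of 0, and the red points, at an unadjusted p under 0.05, are Syce2 in the double and Ku86 knockouts and H2ax in the Ku86 knockout.

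Peritubular, vascular and matrix genes, like those of Sertoli cells, lay above 0 at the median in every knockout, beside the unseparated levels of Sycp1 and the spermatocyte genes. Of 15 tested Sertoli cell genes, 14, 12 and 14 lay above 0 in the double, Ku86 and Terc knockouts, with medians of 0.90, 0.44 and 0.56, and 15 of the 16 listed were above the floor on every array. None was called, and 10, 0 and 4 of them were higher at an unadjusted p under 0.05, beside 6.34%, 3.72% and 4.9% of all tested probe sets. Summed signal over all 16 listed Sertoli cell genes was 5092.5 to 6090.1 in double knockout and 2983.4 to 4484.1 in Ku86 knockout testis. It was 3652.4 to 4178.2 in Terc knockout and 2703.3 to 2790.8 in wild type testis. Of 12 tested peritubular, vascular and matrix genes, 12, 11 and 11 lay above 0, with medians of 1.35, 0.57 and 0.66. Sums over all 16 listed genes of this kind were 3160.2 to 3699.7 in double knockout and 2294.8 to 2968 in Ku86 knockout testis. They were 2683.9 to 3081 in Terc knockout and 1749.7 to 1979.8 in wild type testis. With the arrays centred on their medians, the median log2 differences were 0.64, 0.20 and 0.22 for Sertoli cell genes and 1.09, 0.33 and 0.32 for peritubular, vascular and matrix genes. The part of these cells in the level of Sycp1 was not tested.

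The lists of the other cell types were mixed. Median log2 differences in the double, Ku86 and Terc knockouts were -0.15, -0.25 and -0.27 for 8 round spermatid genes and -0.09, -0.06 and 0.04 for 11 elongating spermatid genes. For 5 spermatogonial genes they were 0.87, 0.31 and 0.55, on few genes. Leydig cell genes had medians of 0.33, 0.07 and 0.31 over 7 genes, macrophage genes 0.02, -0.17 and 0.05 over 6, and erythroid genes 0.02, 0.15 and 0.30 over 3.

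The probe sets most like Sycp1 in their pattern over the 8 arrays were those of Copb2, a coatomer subunit whose probe set carries the suffix _f_ that Affymetrix gives to probes shared by similar sequences, Igbp1, a regulator of protein phosphatase subunits, and Cmc2, a mitochondrial protein of cytochrome oxidase assembly. Pearson's r of log2 signal was 0.932 for Copb2, 0.930 for Igbp1 and 0.915 for Cmc2 over 8 arrays, as a description, since each pair shares arrays and scaling. Of 7281 probe sets compared, 7 had an r over 0.9 and the median was 0.04. Copb2 read 176.8 and 195.2 in double knockout testis, 72.1 and 154.3 in Ku86 knockout testis, 167.1 and 107.3 in Terc knockout testis, and 90.9 and 151.8 in wild type testis. As for Sycp1, its lowest array was Ku86 knockout replicate 1. Correlations with Sycp1 had a median of 0.39 over the 5 synaptonemal complex and axis genes, 0.05 over the 12 recombination and repair genes and 0.02 over the 19 spermatocyte genes. Some somatic lists were about as high, with medians of 0.43 over 15 Sertoli cell genes, 0.39 over 6 macrophage genes and 0.34 over 7 Leydig cell genes. Lower medians were those of 12 peritubular, vascular and matrix genes (0.20) and 3 erythroid genes (0.09). Among other germ cell lists they were 0.21 for 5 spermatogonial, -0.13 for 8 round spermatid and 0.15 for 11 elongating spermatid genes.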

How the data were processed

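The authors deposited 1 linear intensity for each probe set and array, already scaled so that trimmed means were alike. Their software is not named in the labels or headers. Each array received 15 micrograms of cRNA, per the file headers. Values under the pooled 20th percentile (11.8) were raised to it before taking log2. From the 12488 probe sets, 66 controls and 5140 with a mean log2 signal over the 8 arrays under that of the pooled 40th percentile (38.1) were left out, and 7282 were tested in limma 3.58.1 (R 4.3.3, lmFit and eBayes with trend, 1 mean per genotype, two-sided, Benjamini-Hochberg). Residual degrees of freedom were 4, and the number of arrays limits the precision. The fit adds to them by sharing spread between probe sets. Without that sharing, the SE of Sycp1 against wild type would equal its residual SD of 0.393, where the fit gave 0.307. Its intervals are thus narrower than its own replicates alone would give. For lists, a gene was its brightest probe set. Exactly 1 gene symbol was given for 10855 probe sets, several for 396 and none for 1237. No genome was used, so no coordinates are given. From each meiotic list, the text names up to 4 genes a comparison with the largest moderated t, plus the 3 probe sets most like Sycp1. Members and gene lists were chosen with earlier results of these data known. Alternatives covered normalization, floor, filter, variance trend, threshold, arrays in the fit, blocks, and each array left out. Same-numbered arrays of different genotypes correlated at 0.01 to 0.25 in their deviations, with 3 of the 6 distinct genotype pairs over 0.1. All were above 0, so a shared effect of the experiment number is not excluded. The main fit did not treat that number as a pairing, and a block on it was run as an alternative. The fit was checked on simulated data.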

Additional observations from a re-analysis of the deposited data

How the results depend on the processing

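Sycp1 was not called under any setting tried (counts of 0 for every contrast, each array left out included). Dmc1, Msh5 and Sycp3 entered only the fit without a filter, where 0 of the 4 were called. Sycp3, set to the floor on all 8 arrays, could not have been called there. The lowest adjusted p of Sycp1 was 0.487, in the double knockout without wild type replicate 2. Its direction was not stable, and the cause was not tested. In the double knockout against wild type, the log2 difference of Sycp1 turned to -0.0669 with median centring, -0.0121 with scan day as a block, -0.18 without wild type replicate 1 and -0.21 on scan day 2 alone, a setting chosen after seeing the data. The last of these, the scan day block and the removal of replicate 1 all rest on wild type replicate 2 alone. In the Ku86 knockout the log2 difference of Sycp1 turned to 0.05 without Ku86 knockout replicate 1 and 0.0630 without wild type replicate 2. In the Terc knockout it turned to 0.19 without Terc knockout replicate 2 and 0.37 without wild type replicate 2. Ku86 loss averaged over Terc turned to 0.13 without Ku86 knockout replicate 1 or wild type replicate 2 and to 0.04 without Terc knockout replicate 1, and Terc loss to -0.13 on scan day 2 alone. With 1 array left out, Sycp1 ranged from -0.18 to 0.57 (double knockout), -0.69 to 0.06 (Ku86 knockout), -0.38 to 0.37 (Terc knockout), -0.24 to 0.13 (Ku86 loss), 0.07 to 0.44 (Terc loss) and 0.14 to 0.89 (interaction). A genotype left with 1 array is assumed to vary like the others. The experiment number as a replicate block is balanced over genotypes and so cannot move the differences of Sycp1 (0.20, -0.31 and -0.0039). With that block 0 members were called. H2ax in the double knockout turned to 0.0528 with scan day as a block and 0.0759 on scan day 2 alone, both resting on wild type replicate 2. Syce2 kept its direction in all 20 settings of each comparison, from -0.76 to -0.39, -0.81 to -0.47 and -0.68 to -0.22 in the double, Ku86 and Terc knockouts. Many settings could not move it. For any gene, filter, variance trend, experiment-number block and left-out arrays of other genotypes leave a comparison with wild type unchanged. For Syce2 the floor percentile did so too. Syce2 read lower on every knockout array than on both wild type arrays. Leaving out an array, or using scan day 2 alone, therefore could not reverse its direction. The settings for Syce2 and H2ax, and median centring of the lists, were also added after seeing the data. Of 36 values named from the meiotic lists, 24 kept their direction under every setting and 12 did not, and 0 were called. These values were picked for a large moderated t in the same data, so the count does not measure how stable the lists are. Over all tested probe sets, calls numbered 2, 3, 2, 0, 1 and 0 in the 6 contrasts as reported, with 0 the lowest and 30, 15, 17, 20, 8 and 9 the highest under any setting. The mean of several probe sets was not run, since each member has 1. Dim signal limits Dmc1, Msh5 and Sycp3.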
